A study of Mus musculus with 4 samples.

Results

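The glycolysis enzymes followed here were 10 genes: hexokinase 1 (Hk1), glucose-6-phosphate isomerase (Gpi1), phosphofructokinase of the muscle type (Pfkm), aldolase A (Aldoa), triosephosphate isomerase (Tpi1), phosphoglycerate kinase 1 (Pgk1), enolase 2 (Eno2), muscle pyruvate kinase (Pkm) and the lactate dehydrogenase subunits A and B (Ldha, Ldhb). Members were all non-control probe sets whose only gene symbol in the platform's annotation was 1 of these, the older symbol Pkm2 counting as Pkm. This gave 12 probe sets of 9 genes, out of 12488 probe sets on the array. No probe set in that annotation carried the name Gpi1, so Gpi1 was not analysed here. Aldoa, Pkm and Ldhb had 2 probe sets each, which read the same gene and are not independent of each other. The dimmer Ldhb probe set was too dim to test, which left 11 tested probe sets.

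RNA came from wild-type C57Bl6 mice at postnatal day 46, from the visual cortex. Per the labels, all 5 mice had been kept in the dark from birth until day 42, lost 1 eye on that day, and then lived for 4 days in a normal cycle of light and dark. Deprived cortex is the hemisphere contralateral to the removed eye (2 arrays), and non-deprived cortex is the ipsilateral hemisphere (2 arrays), with tissue pooled within each side. Both groups therefore share the dark rearing, the enucleation and the late first light, and no mouse with both eyes or with normal rearing enters the comparison. The labels do not say how the mice were divided over the pools. The p-values therefore measure the spread between these arrays, part of which may be technical. Most fibres of the mouse optic nerve cross, so the contralateral cortex loses its main eye, while its binocular zone still receives the other eye.

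Glycolysis breaks glucose down to pyruvate in the cytosol and yields ATP without oxygen, and lactate dehydrogenase exchanges pyruvate with lactate. The brain runs largely on glucose, and firing neurons and their synapses account for much of its use. In other tissues the genes of several of these enzymes are known targets of the hypoxia-inducible factor, and the question for the visual cortex is whether their transcripts differ between a hemisphere that lost its main eye and one that kept it.

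Promoter sequence is shown for Ldha and Pgk1 because, among the members, both are known targets of the hypoxia-inducible factor, so a reader can set the letters beside their measured signals. The sequences are the 250 bases before a transcription start from RefSeq on GRCm38.p6, written 5′ to 3′ along the gene. All 10 genes had an entry, and for Ldha which has 2 listed starts, the window with more copies of the hypoxia core is shown. Capitals mark that core, ACGTG on either strand (CACGT when read on the other), and the cAMP response element TGACGTCA.
Ldha, chr7:46845554-46845803, plus strand: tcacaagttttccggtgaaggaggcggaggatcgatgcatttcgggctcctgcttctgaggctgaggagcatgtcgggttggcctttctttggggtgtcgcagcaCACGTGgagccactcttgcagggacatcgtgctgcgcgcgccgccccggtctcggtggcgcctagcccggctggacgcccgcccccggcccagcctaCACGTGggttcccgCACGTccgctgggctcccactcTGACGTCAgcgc
Pgk1, chrX:106186850-106187099, plus strand: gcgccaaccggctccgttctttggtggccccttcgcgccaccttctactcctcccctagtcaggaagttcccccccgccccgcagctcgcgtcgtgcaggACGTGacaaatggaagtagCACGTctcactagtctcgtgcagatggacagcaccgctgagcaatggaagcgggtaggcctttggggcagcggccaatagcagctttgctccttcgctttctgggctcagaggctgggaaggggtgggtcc

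The Ldha window held the hypoxia core 5 times, counting 2 CACGTG palindromes once on each strand, and the cAMP response element once, starting 12 bases before the start. That element is bound by CREB, a factor that neuronal activity switches on. The Pgk1 window held the hypoxia core 2 times, once on each strand. Over all 32851 windows of the same length the core occurred in 16.6% and the cAMP response element in 1.55%. The 10 member genes had 18 listed windows, and 7 of these held the core, at Pfkm, Aldoa, Pgk1, Pkm and Ldha. The cAMP response element was in 1 of the 18, that of Ldha. Also searched on both strands were the AP-1 site TGACTCA, found in 1 member window, at Aldoa, and in 4.46% of all windows, the TATA box TATAAA, found in 1, at Eno2, and in 12.4%, and the GC box GGGCGG, found in 7 member windows of 6 genes and in 32.7%. These are matches of letters and not measured binding, and a link between them and the signals was not tested.

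No glycolysis probe set differed between deprived and non-deprived cortex by the test used. The fit was limma on log2(signal + 60.6), where the signal is the MAS5 intensity in arbitrary units, with Benjamini-Hochberg adjustment over all 7458 tested probe sets. At an adjusted p under 0.05 it called 0 of the 11, beside 0.107% of all tested probe sets, and the lowest adjusted p among the 11 was 0.99. At an unadjusted p under 0.05 it had 0 of the 11, beside 5.43% of all. The fitted log2 fold changes (deprived over non-deprived) ran from -0.22 at Ldhb to 0.33 at Hk1, with 5 below 0 and 6 above. Their median was 0.024, against 0.0015 over all tested probe sets. With 2 arrays in each group an exact permutation test of a single probe set could not reach a two-sided p below 0.333.

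A p above the threshold does not show that levels were equal, so the intervals matter more here. The 95% intervals of all 11 log2 fold changes lay between -0.67 and 0.81, inside a 2-fold change in either direction. Among all tested probe sets 61.7% had such an interval. The glycolysis probe sets were also brighter than most, with a median signal of 6209.9 over the members against 485.6 over all tested probe sets. Their residual SD had a median of 0.16 (log2), against 0.24 over all. The intervals draw on a variance shared across all probe sets and were wider in some other fits. Without the variance trend 10 of the 11 stayed inside 2-fold, and with arrays scaled to a common median 6 did, while in both fits all 11 intervals included 0. With 1 array left out, 8 to 11 stayed inside 2-fold and 8 to 11 included 0. By comparison, the activity-induced transcription factor gene Fos and Syt1, the calcium sensor of vesicle release, fell in the same fit, by 1.38 ± 0.18 and 1.86 ± 0.18 (log2, SE; adjusted p = 0.020 and 0.0023). Both had been picked with earlier results of these data known. The call of Fos was lost after quantile normalization, with a common median and without the variance trend (adjusted p = 0.058, 0.36 and 0.73), and that of Syt1 without the variance trend (adjusted p = 0.62). In the other refits both passed in limma, and the change kept its direction in all 13.

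**Figure D1:**
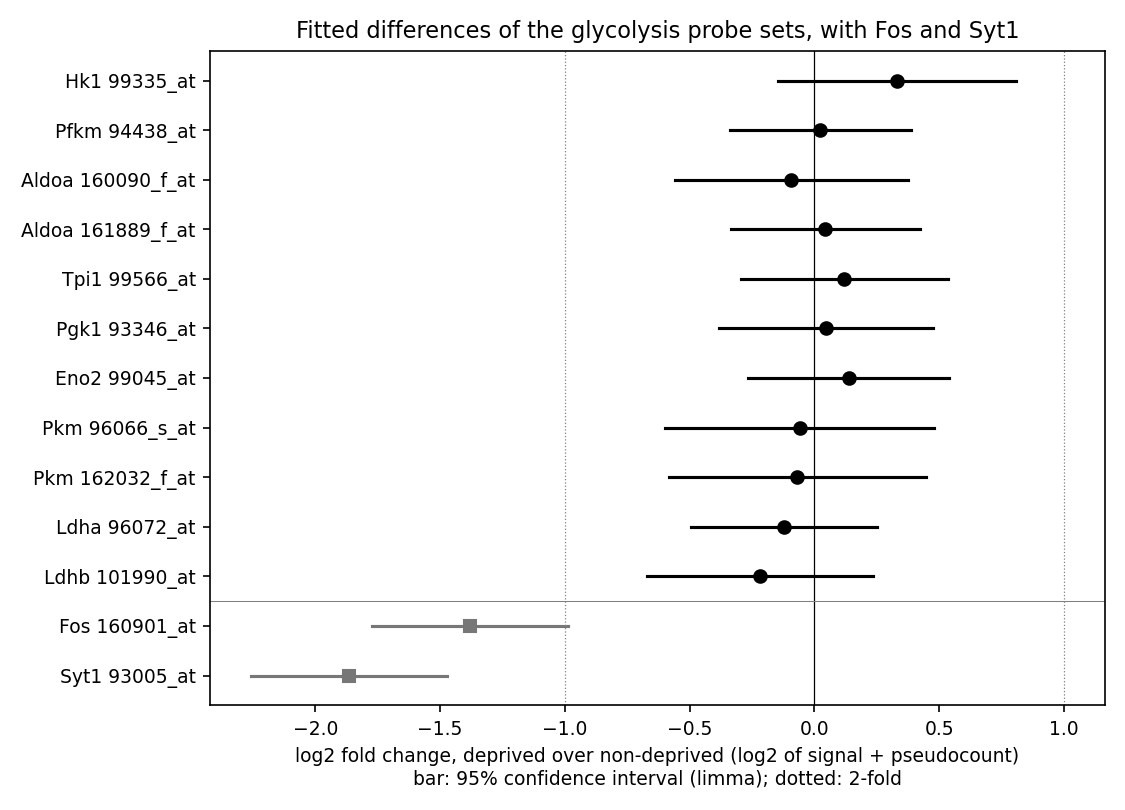
Fitted log2 fold change (deprived over non-deprived, log2 of signal plus pseudocount) of the 11 tested glycolysis probe sets, with Fos and Syt1 below the line. Points are estimates and bars the 95% intervals of limma. Each glycolysis interval includes 0 and lies between -0.67 and 0.81, and dotted lines mark 2-fold.

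The preparatory steps start with hexokinase. Hk1, the main brain hexokinase, which traps glucose in the cell by phosphorylating it, had signals of 2997 and 3274.5 on deprived arrays 1 and 2 and of 1933 and 3179 on non-deprived arrays 1 and 2. Non-deprived array 1 was low and the other arrays lay close together, so the groups overlapped. The fitted difference was 1.26-fold higher in deprived cortex, a log2 fold change of 0.33 ± 0.22 (SE, 95% interval -0.15 to 0.81, adjusted p = 0.99). Without non-deprived array 1 it was -0.021, and without non-deprived array 2 it was 0.68, so 1 array decided both the size and the sign. With the replicate numbers entered as a block, Hk1 had an unadjusted p of 0.064 and an adjusted p of 0.59.

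Pfkm encodes a subunit of phosphofructokinase, which commits sugar to glycolysis and is the pathway's main point of control. Its signals were 4462 and 4749 on the deprived arrays and 4700.4 and 4358 on the non-deprived arrays. All 4 lay within 1.09-fold of each other, the narrowest range among the members, and the log2 fold change was 0.024 ± 0.17 (95% interval -0.34 to 0.39).

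Aldoa, the aldolase that cuts fructose bisphosphate into triose phosphates, was read by 2 probe sets. Both carry the array maker's suffix for families of similar sequences, so signal from related copies could add to theirs. The first, 160090_f_at, was the brightest of all members, with 14505 and 16236 on the deprived arrays and 16750.5 and 15981.5 on the non-deprived arrays. The second, 161889_f_at, gave 6460.2 and 6416 on the deprived and 5961 and 6538 on the non-deprived arrays. Their log2 fold changes were -0.092 ± 0.21 and 0.044 ± 0.17, on opposite sides of 0 and each within 1 SE of it.

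Tpi1 interconverts the triose phosphates so that both can go on. Its signals were 7249 and 9067 on the deprived arrays and 7591 and 7334 on the non-deprived arrays. Deprived array 1 was the lowest and deprived array 2 the highest of the 4, and the log2 fold change was 0.12 ± 0.19 (95% interval -0.30 to 0.53). Without deprived array 2 it was -0.041.

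Among the enzymes of the ATP-yielding steps, Pgk1, which makes the first ATP, had 4442.5 and 5883 on the deprived arrays and 4449.8 and 5498 on the non-deprived arrays. Both replicate 1 arrays were low and both replicate 2 arrays high, in either hemisphere. The log2 fold change was 0.047 ± 0.20 (95% interval -0.38 to 0.47), in a gene whose promoter, printed above, holds 2 hypoxia cores. It was -0.15 without deprived array 2 and 0.25 without deprived array 1.

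Eno2, the neuron-specific enolase, which is used as a marker of neurons, had 6569.9 and 8015 on the deprived arrays and 6382 and 6818 on the non-deprived arrays. The lower deprived array lay between the non-deprived arrays and the other above them. The log2 fold change was 0.14 ± 0.18 (95% interval -0.27 to 0.54). It was 0.28 without deprived array 1 and -0.0056 without deprived array 2.

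Pkm, the pyruvate kinase of brain and muscle, which makes the last ATP and pyruvate, was read by 96066_s_at and 162032_f_at, both with suffixes for shared sequence. The array annotation does not separate its M1 and M2 splice forms. The brighter probe set gave 11572.5 and 17283 on the deprived arrays and 13199.8 and 16461 on the non-deprived arrays. The dimmer gave 4623.5 and 7651 on the deprived and 6980.4 and 5585 on the non-deprived arrays. At both, deprived array 1 was the lowest and deprived array 2 the highest of the 4, and the non-deprived arrays lay between them. The log2 fold changes were -0.059 ± 0.25 and -0.069 ± 0.24. Without deprived array 1 they were 0.23 and 0.29, and without deprived array 2 they were -0.35 and -0.43.

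The lactate dehydrogenase subunits join into mixed tetramers. Ldha, the subunit that predominates in strongly glycolytic tissue and the member with the cAMP response element in the window above, had 4898 and 5376 on the deprived arrays and 5686 and 5496 on the non-deprived arrays. It was the 1 tested member whose groups did not overlap, with both deprived arrays below both non-deprived ones, which 17.1% of all tested probe sets also showed. Non-overlap in either direction held for 1 of the 11 members and for 32.2% of all tested probe sets. The Ldha groups had means of 5137 ± 338 and 5591 ± 134 (SD, n = 2 per group), a difference of 1.09-fold. Its log2 fold change was -0.12 ± 0.17 (95% interval -0.49 to 0.25, adjusted p above 0.99), and with arrays scaled to a common median the groups overlapped.

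Ldhb, the subunit named after its abundance in heart and common in neurons, had 1664 and 2554.5 on the deprived arrays and 2568 and 2262 on the non-deprived arrays. Deprived array 1 was low and the other 3 lay together. The log2 fold change was -0.22 ± 0.21 (95% interval -0.67 to 0.24), the lowest of the members. It was 0.082 without deprived array 1 and -0.52 without deprived array 2. The other Ldhb probe set, 161945_at, stayed between 7.9 and 27.1 on all 4 arrays, below the signal of 142.9 needed for testing, and says nothing about the gene.

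**Figure D2:**
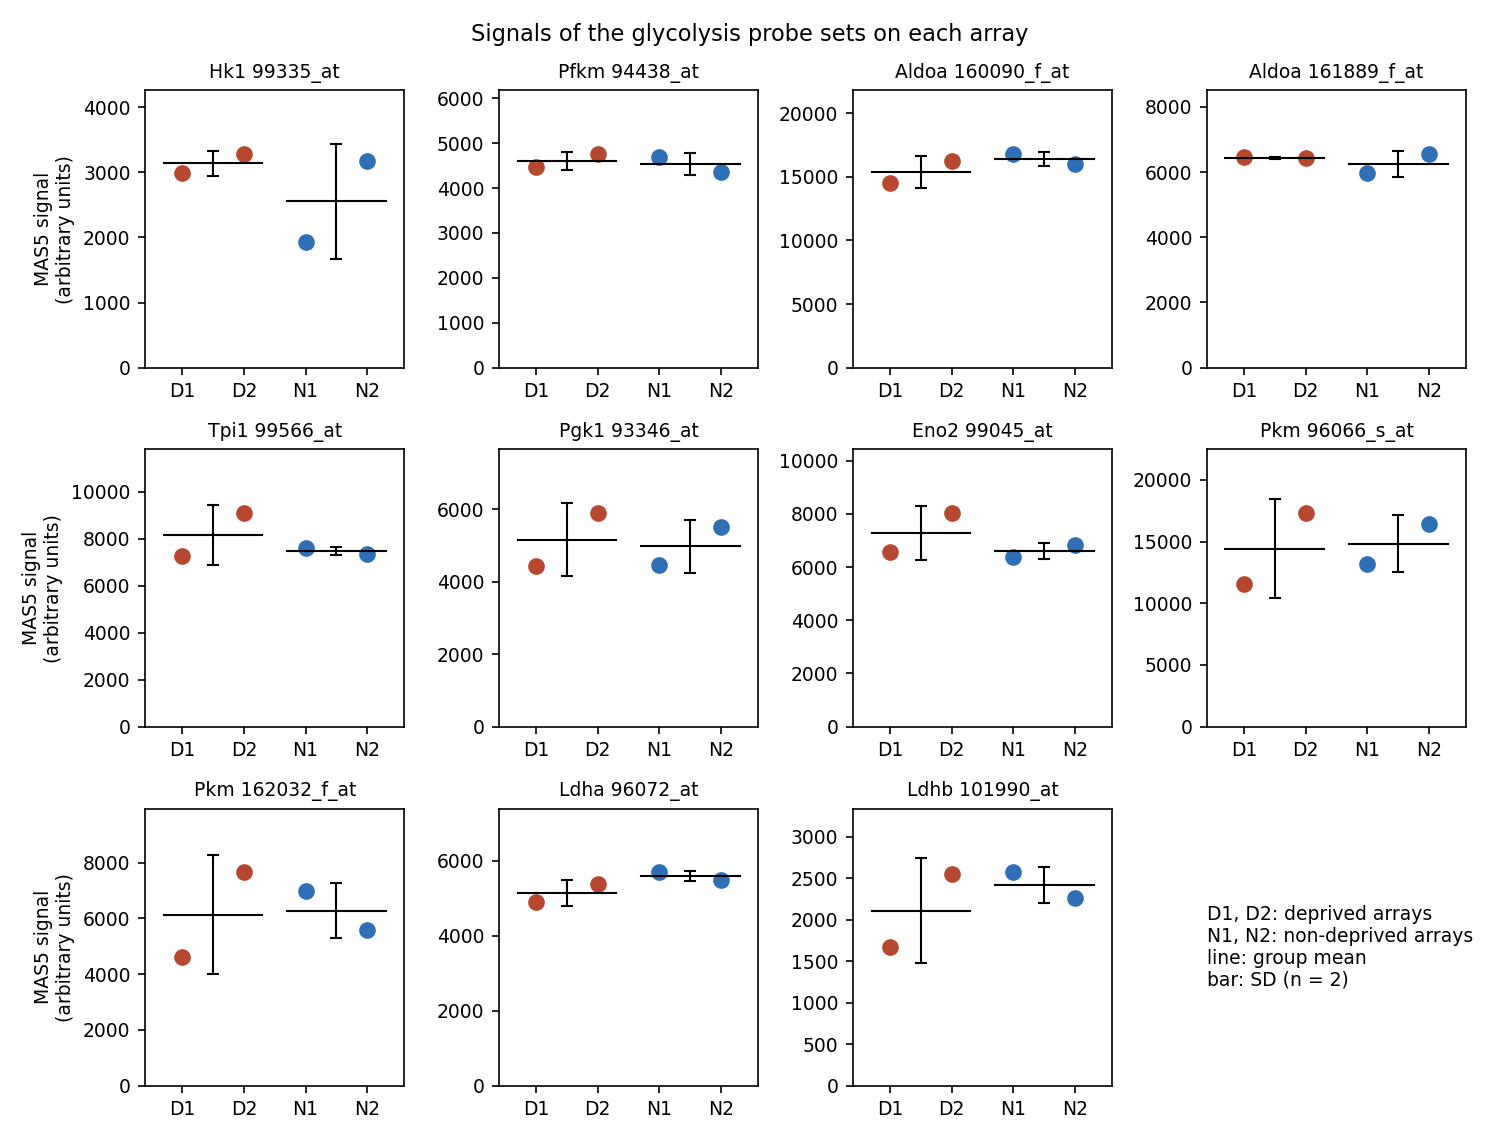
MAS5 signal (arbitrary units, axes from 0) of each tested glycolysis probe set on deprived arrays D1 and D2 and non-deprived arrays N1 and N2, with group means as lines and SD as bars (n = 2). The groups overlap in each panel except that of Ldha, and Hk1 is low on N1 at 1933 while Ldhb is low on D1 at 1664.

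The members differed more between the deprived arrays than between the groups. At 10 of the 11 probe sets the signal was higher on deprived array 2 than on deprived array 1, which held for 47.9% of all tested probe sets. The difference had a median of 0.28 (log2) over the members and reached 0.72 at the dimmer Pkm probe set, 0.60 at Ldhb and 0.58 at the brighter Pkm probe set. The exception was the dimmer Aldoa probe set at -0.010. Between the groups the absolute difference had a median of 0.092 over the members. Over all tested probe sets the median absolute difference was 0.33 between the deprived arrays and 0.19 between the groups. A wider difference between single arrays was thus not particular to glycolysis. The signed difference, deprived array 2 minus deprived array 1, had a median of -0.023 over all tested probe sets. Over the members its signed and absolute medians were both 0.28. At 9 of the 11 members the difference within the deprived group exceeded the fitted difference between the groups. The same share over all tested probe sets was not counted, so this count is not a result about the members. Deprived array 1 was the lowest of the 4 arrays at 7 of the 11 members, against 29% of all tested probe sets, and deprived array 2 the highest at 7, against 24.4%. The non-deprived arrays showed no such common shift: replicate 2 was above replicate 1 at 5 of the 11, with a median of -0.049, although Hk1 differed by 0.70.

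This shift depended on how the arrays were scaled. After quantile normalization, deprived array 2 was above deprived array 1 at 6 of the 11 members, with a median of 0.016. Over all tested probe sets it was above at 50.7%, with a median of 0.0079. When the arrays were given a common median it was above at 11 members, with a median of 0.65. Over all it was then above at 70.8%, with a median of 0.32, so part of that rise was not particular to glycolysis. The upper end of the signals differed in the same direction between these arrays. Their 99th percentile over non-control probe sets was 7744 on deprived array 1 and 9596 on deprived array 2, against 8131 and 8503 on non-deprived arrays 1 and 2, while the medians ran the other way, at 245.7 and 190.0 on the deprived arrays. Pkm and Ldhb, the members most different between the deprived arrays, stayed low on deprived array 1 after quantile normalization. As the members split this way, their median between groups was 0.23 without deprived array 1 and -0.15 without deprived array 2.

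**Figure D3:**
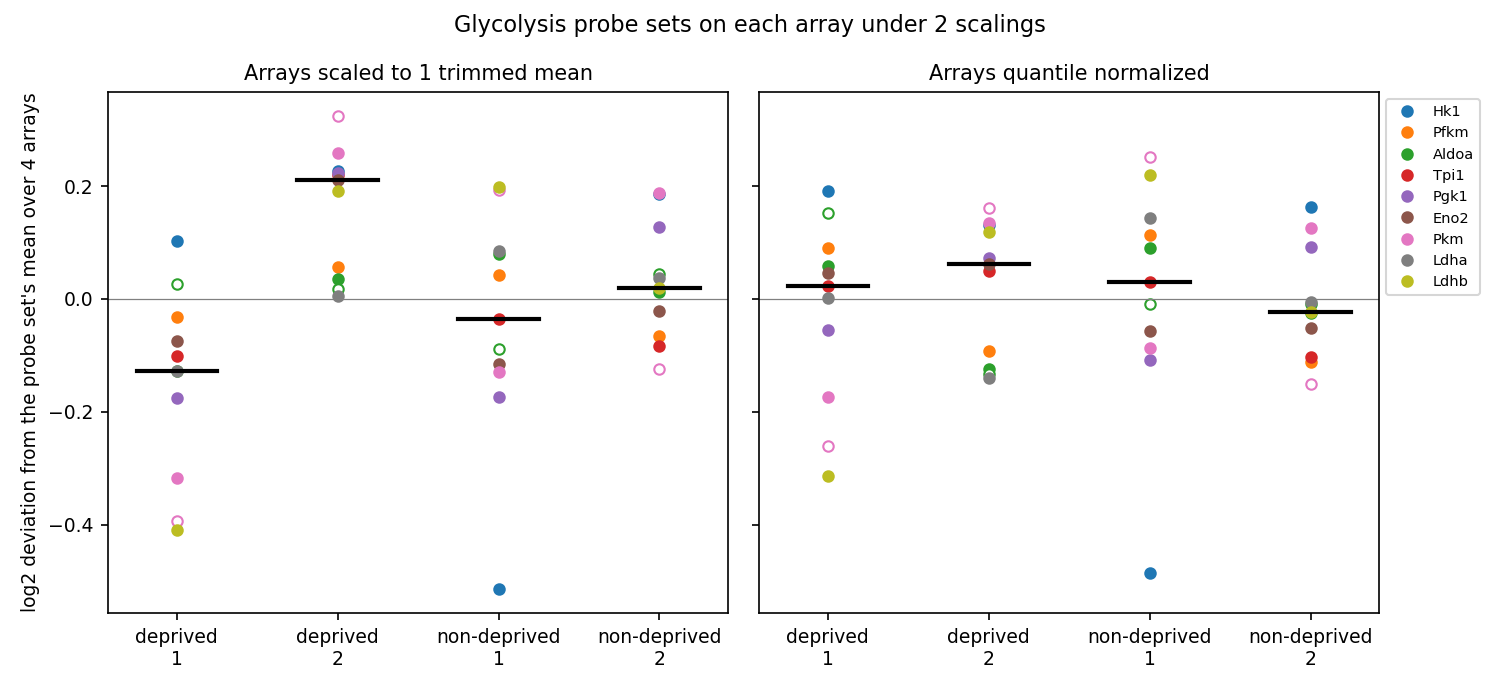
Log2 deviation of each tested glycolysis probe set from its own mean over the 4 arrays, with arrays scaled to 1 trimmed mean (left) or quantile normalized (right). Colours are genes, open circles the dimmer probe set of Aldoa and Pkm, and black lines the medians. On the left the median is -0.13 on deprived array 1 and 0.21 on deprived array 2, and on the right 0.022 and 0.062.

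Array quality and tissue makeup were compared over the same arrays. The 5′ to 3′ signal ratio of actin was 0.544 and 0.463 on the deprived arrays and 0.638 and 0.632 on the non-deprived arrays. That of Gapdh was 0.745 and 0.689 against 0.875 and 1.07, so both were lower in deprived cortex. That of the transferrin receptor was 0.269 and 0.474 against 0.270 and 0.0758, with a higher mean in deprived cortex. Its 5′ signals were dim, at most 76.5. Cortical markers were present, with Snap25 between 15283 and 20866 and the excitatory marker Nrgn between 7654 and 10285. Marker lists covered neurons, excitatory and inhibitory neurons, glia, vessels, blood, choroid plexus, striatum and thalamus, with each marker read at its brightest probe set. Some markers, such as Cnp and Kl, were too dim to test. In limma 0 of 40 tested markers passed in either direction. At an unadjusted p under 0.05 were 4 of the 40, or 10%, against 5.43% of all tested probe sets. These 4 are named here after their values were seen. Nefl, Camk2a and Slc1a2 had log2 fold changes of -0.68, -0.62 and -0.997. Mobp had 0.47 at its brightest probe set and -0.14, -0.59 and -0.64 at the dimmer ones. The dimmer Camk2a probe set gave -1.74, with an adjusted p of 0.29 that became 0.032 with the replicate number as a block. The 5 tested neuron markers were all lower in deprived cortex at their brightest probe sets, with a median log2 fold change of -0.25, while the other Stmn2 probe sets gave 1.07 and 0.13, neither past the test. Their summed signal was 27610.5 and 33541 on the deprived arrays and 34196 and 36999.5 on the non-deprived arrays, lowest on the array where most members were lowest. The summed signal of the red cell markers was 2748 and 7717 on the deprived arrays against 3706 and 5149.9 on the non-deprived arrays. Its lowest and highest arrays were those of most members, but nearly all of it came from Hba-a1. Alas2, the other red cell marker read, was lowest on non-deprived array 1, at 46.4, and highest on deprived array 2, at 251.7. Summed excitatory (8737) and inhibitory (13092) neuron markers were also lowest on deprived array 1. Most of the excitatory sum was Nrgn, while Neurod6 and Gad1 were lowest on deprived array 2 and Gad2 on non-deprived array 1. Summed thalamus markers (3509 and 2294 on the deprived arrays) and choroid plexus markers (586.5 and 97.0) ran opposite to most members. So did those of vessels (1427 and 991) and striatum (488.6 and 165.9). Of the choroid plexus and striatum markers only 1 each was bright enough to test. Summed oligodendrocyte markers were 12401 and 11174 on the deprived arrays and 10394 and 9157 on the non-deprived arrays. For microglia the sums were 4834 and 4999 against 4762 and 4733, and for astrocytes 7564 and 7152 against 7826.5 and 6965.5. Thus both deprived arrays lay below both non-deprived ones in the neuron sum, and above them in the oligodendrocyte and microglia sums. The part of these differences in the members' values was not tested, and in bulk tissue fewer cells of a type and less RNA per cell cannot be told apart.

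The rest of glucose metabolism was read through 6 further lists of 86 genes, each gene by its brightest probe set. Of these, 67 had a probe set and 52 were bright enough to test. In limma 0 of the 52 passed in either direction, and 1 was at an unadjusted p under 0.05. There were 21 below 0 and 31 above, with a median of 0.053.

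Of the other glycolytic enzymes 7 were tested, 4 lower and 3 higher, with a median of -0.051 and 0 past the threshold. Pgam1, the mutase between Pgk1 and enolase, gave -0.16 ± 0.21 (log2 fold change, SE), and the liver-type phosphofructokinase subunit Pfkl gave 0.059 ± 0.17. Aldoc, the brain aldolase that is abundant in astrocytes, gave -0.051 ± 0.20, with 6947 and 9223 on the deprived arrays and 8464 and 8133 on the non-deprived arrays. It was thus lowest on deprived array 1 and highest on deprived array 2, the order seen at Tpi1 and Pkm. The platelet-type subunit Pfkp gave -0.064 ± 0.22 at its brighter probe set and -0.35 ± 0.21 at the other, where the groups did not overlap (adjusted p = 0.98). Eno3, Bpgm and Pklr gave 0.24, 0.15 and -0.23, the last from a dim probe set with an SE of 0.60. Hk2, the inducible hexokinase, was too dim to test at both its probe sets, with signals up to 105.3. Gapdh was named together with pseudogenes at its non-control probe sets. The brighter of these gave 9905 and 12040.3 on the deprived arrays and 9884 and 12121 on the non-deprived arrays, a log2 fold change of -0.0033 ± 0.21 that cannot be assigned to Gapdh alone. No probe set carried the name Eno1.

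The glucose and lactate transporters had 5 tested genes, all 5 below 0 with a median of -0.093, and 0 passed. Slc2a1, the glucose transporter of the blood-brain barrier and astrocytes, gave -0.20 ± 0.33, with 564.1 and 268.2 on the deprived arrays and 469.5 and 451.2 on the non-deprived arrays. Slc2a3, the neuronal glucose transporter, gave -0.11 ± 0.19 at its brighter probe set. At its dimmer one it gave -0.51 ± 0.30, with 277.8 and 313.6 on the deprived arrays and 392.6 and 507.1 on the non-deprived arrays. The groups did not overlap there, and the adjusted p was 0.98. Bsg, the chaperone of lactate transporters, Slc2a8 and Slc2a5 gave -0.093, -0.090 and -0.0041. The lactate transporters Slc16a1 and Slc16a7 were too dim to test, with signals up to 58.6 and 88.5.

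Regulators of glycolysis and of the entry of pyruvate into mitochondria had 9 tested genes, 3 lower and 6 higher, with a median of 0.038 and 0 passed. Pdha1, a subunit of pyruvate dehydrogenase, gave 0.0034 ± 0.17, and its partner Pdhb 0.18 ± 0.20. Dlat gave 0.24 ± 0.26 at its brighter probe set and -0.45 ± 0.44 at the other. Pdk4, a kinase that switches pyruvate dehydrogenase off, and Pfkfb3, which makes an activator of phosphofructokinase, gave -0.35 ± 0.47 and -0.31 ± 0.40. No probe set carried the name Pdk2.

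Of the branches, the pentose phosphate pathway had 6 tested genes with a median of -0.13, among them Taldo1 at 0.39 ± 0.30, Pgls at -0.21 ± 0.25, Rpia at -0.16 ± 0.21 and Pgd at -0.15 ± 0.24, and 0 passed. The glycogen and glycerol phosphate branches had 8 with a median of 0.13 and 0 passed. Pygb, the brain glycogen phosphorylase that frees glucose units from glycogen, had 722.7 and 919.1 on the deprived arrays and 593.7 and 493.0 on the non-deprived arrays. Both deprived arrays were above both non-deprived ones, and the log2 fold change was 0.54 ± 0.23 with an unadjusted p of 0.037 and an adjusted p of 0.89 in limma. It was the 1 gene of the 52 under 0.05 unadjusted, a share of 1.92% beside 5.43% over all tested probe sets. Gys1, the glycogen synthase, gave 0.23 ± 0.20, Gpd1 -0.22 ± 0.22 and Gpd2 0.15 ± 0.20.

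The citric acid cycle had 17 tested genes, 4 lower and 13 higher, with a median of 0.089 and 0 passed. Idh2, the mitochondrial isocitrate dehydrogenase that yields NADPH, had 566.7 and 580.7 on the deprived arrays and 384.7 and 370.9 on the non-deprived arrays. The groups did not overlap and the replicates lay close together, and the log2 fold change of 0.53 ± 0.25 had an adjusted p of 0.92. Mdh1, the cytosolic malate dehydrogenase, gave -0.39 ± 0.26, Fh1 0.26 ± 0.20 and Sdhd 0.21 ± 0.20, each with an adjusted p of 0.99 or above.

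**Figure D4:**
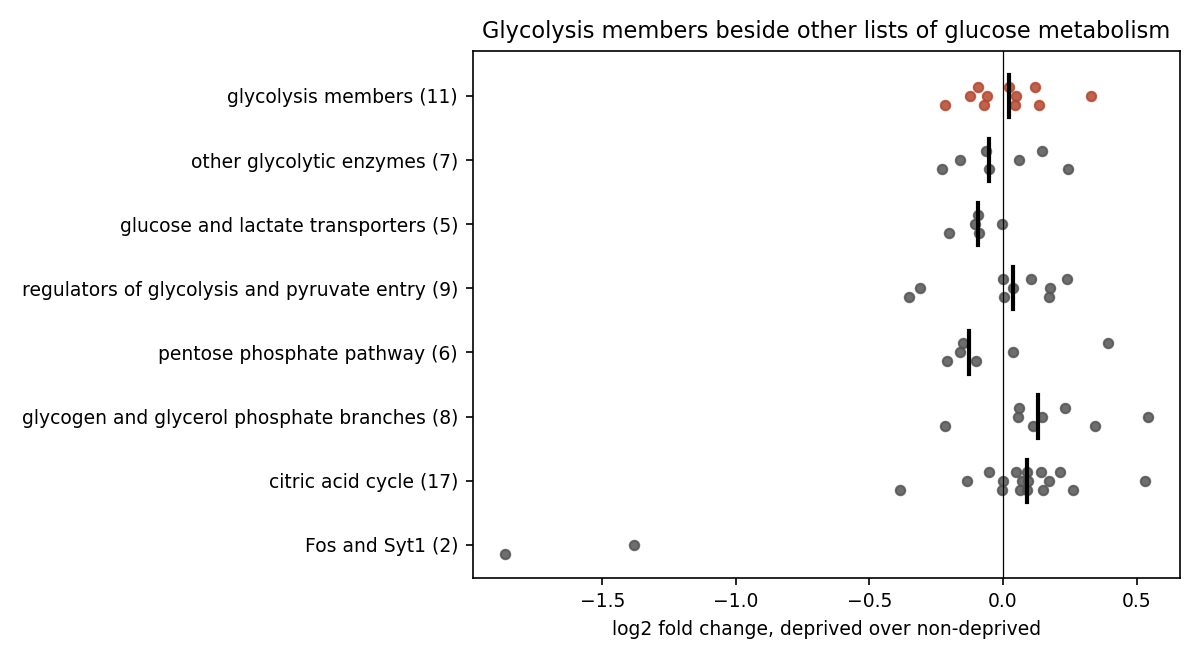
Log2 fold change (deprived over non-deprived) of the 11 tested glycolysis probe sets in red and, in grey, of the brightest probe set of each tested gene in 6 further lists of glucose metabolism, with the number of points in brackets. Black bars are medians, from -0.13 for the pentose phosphate pathway to 0.13 for the glycogen and glycerol phosphate branches. Fos and Syt1, at -1.38 and -1.86, lie apart from all of them. They were picked with earlier results of these data known, so this contrast is not a test.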

How the data were processed

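The data were 4 single-colour Affymetrix arrays, 2 per group. Each deposited value is a linear intensity per probe set. Per the submitters' processing notes the authors used MAS5, and its version and scaling target are not given in the sources used here. On every array the 2% trimmed mean was 500.3 or 500.4, and median signals ran from 189.9 to 245.7. The number of arrays limits the precision.

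Arrays were scaled to 1 trimmed mean, 60.6 (the 20th percentile of the mean signals) was added and log2 taken, which understates changes of dim ones. Controls and probe sets below the 40th percentile, 142.9, were left out. limma 3.58.1 in R 4.3.3 (lmFit, eBayes with trend) was fitted two-sided to 7458 probe sets, with 2 residual degrees of freedom, or 11.6 with the prior. The fit was tested on simulated data. Symbols were updated through Entrez identifiers and a RefSeq table of GRCm38.p6, which matched 10839 of 10855 probe sets with a single symbol. Motifs were searched with Python 3.11.15.

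The design text sets cross-animal comparisons apart, so same-numbered arrays were read as sharing animals. Their deviations from the group means correlated over probe sets at r = 0.27, which shared processing could also give. The main fit has no block, and a blocked fit was an alternative, as were other scalings, pseudocounts, filters and variance models, and leaving out each array.

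The members and lists were chosen with earlier results of these data known. Genes named were every member, 13 further glucose genes whatever their values, up to 4 other genes with the smallest p in each list, Fos, Syt1 and the control probe sets.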

Additional observations from a re-analysis of the deposited data

How the results depend on the processing

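limma called 0 of the 11 glycolysis probe sets in each of the 13 refits and at an adjusted p under 0.2. The lowest adjusted p was 0.59 with the replicate block, which changed no call of a member or of a named glucose gene, and 0.22 without deprived replicate 2. Over all probe sets the count of 8 became 40 with the replicate block, 1 after quantile normalization, 3 with a common median, 0 without the variance trend (390 at an unadjusted p under 0.05) and 27 at an adjusted p under 0.2, the last by construction. With 1 array left out it ran from 5 to 90. The members' median of 0.024 lay between -0.0016 and 0.046 in the refits on all arrays and between -0.15 and 0.23 with 1 array left out. The count of members without overlap, 1, became 0 with a common median, beside 26.7% of all tested probe sets. It was 3 to 8 with 1 array left out, where fewer arrays have to agree. Those counts are given without a share over all probe sets and are not a result about the members. Apart from these constructions the cause was not tested. There were 555 single values over 43 probe sets (the 11 members and 32 of the wider glucose lists). Of these, 555 stayed on their side of the threshold. Against the main fit 39 changed sign, none of them more than 1 SE from 0 on both sides. Refits could differ more from each other: the dimmer Pkm probe set gave 0.29 without deprived array 1 and -0.43 without deprived array 2. Of the 11 members, 9 changed sign when some 1 array was left out. In such fits the remaining array of a group is assumed to vary like those of the other. For Fos and Syt1, whose refits were added after the data were seen, 10 and 12 of 13 passed in limma. Effects inside the intervals given are not excluded by these 4 arrays.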
